A study of Mus musculus with 4 samples.

Results

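The 10 genes of glucose uptake and glycolysis described here were Slc2a1, Hk2, Pfkl, Aldoa, Gapdh, Pgk1, Eno1, Pkm, Ldha and Pdk1. They were taken by symbol from the table of raw gene counts, as 10 of its 55418 rows. The choice used none of their values, but it was made with earlier results of these data known. All 10 passed the filter on low counts that left 18444 genes for testing. RNA-seq had been carried out on mouse E14 embryonic stem cells (ESCs), with 2 libraries of wild-type (WT) ESCs and 2 libraries labelled Pim3-/-. Pim3 encodes a serine/threonine kinase, and both Pim3-/- lines were made with CRISPR/Cas9 from a pair of guide RNAs in Pim3 exons. The comparison asks how the transcriptome differs when this kinase is missing.

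Both groups were E14 cells of the same strain label, 12910la, grown on gelatin in medium with serum and LIF, the cytokine that holds ESCs undifferentiated. The WT libraries came from 2 biological samples of WT ESCs. Each Pim3-/- library came from 1 clone, and the sources do not say which replicate number is which clone. A difference between the groups therefore cannot be told apart from a difference between the cultures and the clones, and p-values measure the spread between these 4 samples. Pim3 itself does not test the labels, because its gene counts were 4392 and 4953 in WT against 4970 and 4804 in the libraries labelled Pim3-/- (log2 fold change -0.27, standard error (SE) 0.17). The paper reports the knockout from DNA sequencing, qPCR and western blot, the last with complete loss of the PIM3 protein.

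Glycolysis splits glucose into pyruvate in the cytosol and yields ATP without oxygen. SLC2A1 (GLUT1) carries glucose into the cell, a hexokinase and a phosphofructokinase commit it to the pathway, and the later enzymes lead to pyruvate, which lactate dehydrogenase turns into lactate or which enters the mitochondrion through pyruvate dehydrogenase. Pyruvate dehydrogenase kinases such as PDK1 close that entry. ESCs in culture are known for a high rate of glycolysis, and many genes of the pathway are textbook targets of the hypoxia-inducible factor HIF-1, which binds the letters ACGTG or GCGTG in DNA.

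The stretches upstream of 5 of the genes are shown because 4 of them, Slc2a1, Pfkl, Pgk1 and Pdk1, were the genes of the 10 that were called higher, and Gapdh was the 1 with the lowest fold change. They are the 250 bases before a RefSeq start in GRCm38.p6, read 5′ to 3′ on the strand of the gene. Capitals mark ACGTG and GCGTG, or CACGT and CACGC where these letters lie on the other strand.
Slc2a1 (chr4:119108495-119108744, plus strand): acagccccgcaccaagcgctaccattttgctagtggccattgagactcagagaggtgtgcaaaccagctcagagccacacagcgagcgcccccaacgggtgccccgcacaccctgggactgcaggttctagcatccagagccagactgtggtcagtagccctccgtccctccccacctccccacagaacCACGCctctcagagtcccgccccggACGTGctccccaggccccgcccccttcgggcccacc
Pfkl (chr10:78009808-78010057, minus strand): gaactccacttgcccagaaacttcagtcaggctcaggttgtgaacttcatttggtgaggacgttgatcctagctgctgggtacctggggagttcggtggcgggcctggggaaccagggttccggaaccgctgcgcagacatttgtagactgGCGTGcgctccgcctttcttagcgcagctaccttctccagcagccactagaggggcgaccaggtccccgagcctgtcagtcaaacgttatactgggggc
Pgk1 (chrX:106186850-106187099, plus strand): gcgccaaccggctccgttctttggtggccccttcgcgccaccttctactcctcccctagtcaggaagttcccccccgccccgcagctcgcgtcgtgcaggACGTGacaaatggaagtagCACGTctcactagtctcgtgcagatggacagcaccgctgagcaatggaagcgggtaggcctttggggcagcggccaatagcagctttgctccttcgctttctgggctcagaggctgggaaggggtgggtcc
Pdk1 (chr2:71872974-71873223, plus strand): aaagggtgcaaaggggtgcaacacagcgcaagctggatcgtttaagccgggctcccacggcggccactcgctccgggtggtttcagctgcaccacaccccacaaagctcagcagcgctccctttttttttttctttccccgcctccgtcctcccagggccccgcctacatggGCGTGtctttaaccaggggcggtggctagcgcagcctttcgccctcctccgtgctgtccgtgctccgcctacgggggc
Gapdh (chr6:125165774-125166023, minus strand): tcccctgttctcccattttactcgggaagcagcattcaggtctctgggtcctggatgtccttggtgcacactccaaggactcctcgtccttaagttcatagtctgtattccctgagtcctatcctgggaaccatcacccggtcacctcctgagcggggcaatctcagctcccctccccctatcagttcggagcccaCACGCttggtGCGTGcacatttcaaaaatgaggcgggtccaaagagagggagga

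The letters stood 61 and 36 bases before the start of Slc2a1, 99 bases before that of Pfkl, 150 and 131 bases before that of Pgk1 and 78 bases before that of Pdk1. In Gapdh they stood 54 and 44 bases before the start. A further RefSeq window of Pdk1, which is not shown, had none of the letters. RefSeq gave at least 1 such window for all 10 genes, and each of the 10 had the letters in at least 1 window. They are common, since 12679 of 32851 windows of this length (38.6%) and 11226 of 27025 genes (41.5%) had them on either strand. Among the genes shown, the letters stood upstream of those called higher and of Gapdh, which was not called. Whether the letters bear on the calls was not tested. A match is a description of the sequence only.

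Levels are given as CPM, the counts of a gene brought to a common library size with TMM factors, and errors of means are SDs over the 2 libraries of a group. The library totals ran from 22029427 to 25668307 counts. The TMM factors (0.828 and 0.883 in WT, 1.168 and 1.172 in Pim3-/- ESCs) bear on every gene, since scaling by library totals alone moved the median log2 fold change of all tested genes up by 0.45. The group was tested with the quasi-likelihood test of edgeR, and a gene was called at a Benjamini-Hochberg adjusted p under 0.05 over all 18444 genes.

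Of the 10 genes, 4 were higher in the libraries labelled Pim3-/- and none was lower. At an unadjusted p under 0.05 in edgeR it was 5 and 0, and the Wald test of DESeq2 called 5 higher and 1 lower. Among all tested genes 17.6% were called higher and 16.2% lower. The 10 genes are strongly expressed, and among the 1871 tested genes with a mean of at least 100 CPM, a class that holds all 10, only 4.22% were called higher and 47.0% were called lower. The median log2 fold change of the 10 genes was 0.45, against 0.07 for all tested genes and -0.58 for those of at least 100 CPM. The 10 genes all lay above the median of this class. Without WT replicate 1 or WT replicate 2 fewer of the 10 were called higher, and their median log2 fold change was 0.44 and 0.32. It was 0.35 without Pim3-/- replicate 1 and 0.54 without Pim3-/- replicate 2, where more were called higher. Among all tested genes, too, fewer were called without a WT library and more without a Pim3-/- library. Without TMM factors, the 10 genes together took 1.85% and 1.91% of all counts in WT, against 3.05% and 2.63% in Pim3-/- ESCs. With TMM factors their summed levels were 22402 and 21641 CPM in WT, against 26190 and 22511 CPM in Pim3-/- ESCs.

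**Figure D1:**
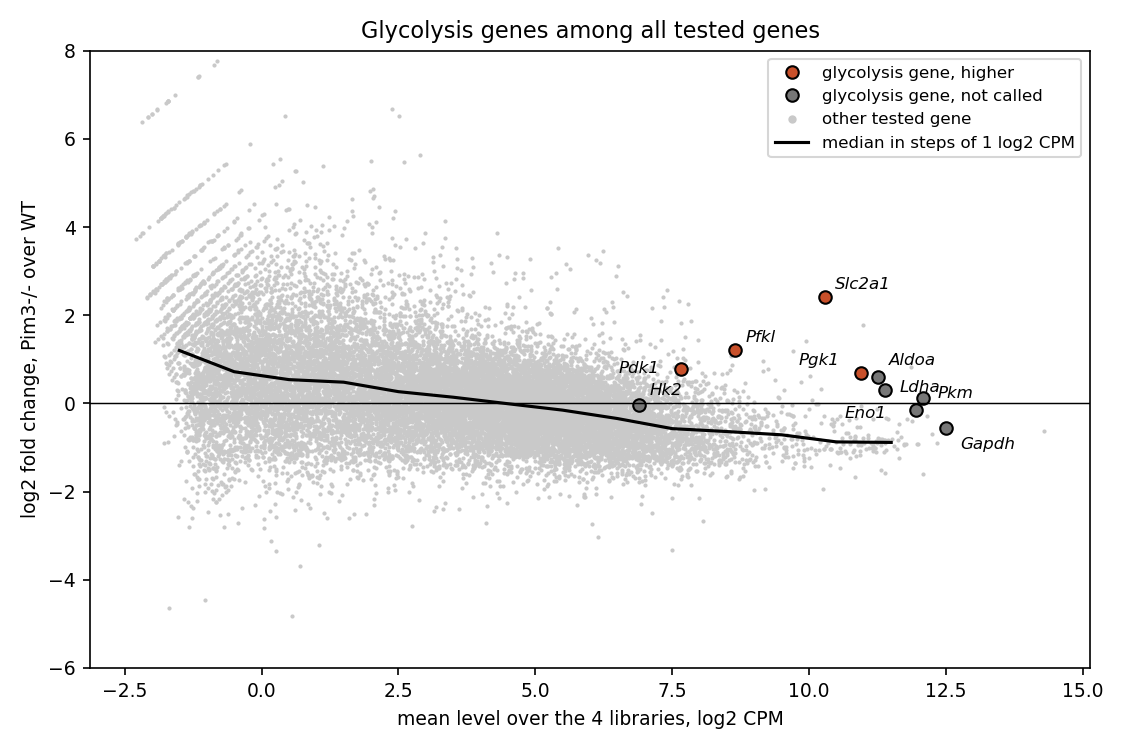
Log2 fold change of Pim3-/- over WT (vertical axis) against the mean log2 CPM of the 4 libraries (horizontal axis) for the 18444 tested genes, with the 10 glycolysis genes as large circles, red where called higher at an adjusted p under 0.05. The black line is the median in steps of 1 log2 CPM and falls as the level rises. The genes within its steps lie above the median of their step, Slc2a1 farthest, and Pkm and Gapdh lie beyond the last step.

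Slc2a1, the glucose transporter GLUT1, changed most of the 10. It had 388 and 402 CPM in WT and 2113 and 2086 CPM in Pim3-/- ESCs. Both clones stood far above both WT cultures, and the clones differed from each other by 1.01-fold. The means were 395 ± 9.98 and 2100 ± 19.0 CPM (SD, n = 2), and the log2 fold change was 2.41 (SE 0.21, adjusted p = 0.00241 by edgeR). By fold change it was number 3 from the top among the 1871 genes of at least 100 CPM. The gene lies at chr4:119108711-119137983 on the plus strand of GRCm38. An antisense gene, Gm12868, shares 105 exon bases with it and had 785, 1288, 7620 and 7650 counts, which is 10.6% to 14.2% of the Slc2a1 count in each library. As the strand setting of the counting is not known, reads of this pair cannot be told apart.

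Of 2 other transporters of the same step with a mean of at least 10 CPM, 1 was called higher. Slc2a3, the high-affinity transporter GLUT3, rose from 875 and 952 CPM to 2723 and 3516 CPM (log2 fold change 1.77, SE 0.24, adjusted p = 0.00457 by edgeR). Slc2a3 had more counts than Slc2a1 in every library, with a ratio of Slc2a1 to Slc2a3 counts of 0.44 and 0.42 in WT and 0.78 and 0.59 in Pim3-/- ESCs. Slc2a8, an intracellular transporter, had 28.1 and 27.6 CPM in WT and 37.2 and 34.6 CPM in Pim3-/- ESCs, and was not called (adjusted p = 0.115 by edgeR).

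Hk2, a hexokinase that phosphorylates glucose on entry, separated the clones rather than the groups. Its levels were 115 and 127 CPM in WT, 205 CPM in Pim3-/- replicate 1 and 29.2 CPM in Pim3-/- replicate 2. One clone was above and the other below both WT cultures, and the clones were 7.03-fold apart. Of the 1871 genes of at least 100 CPM, only 3, Hk2 included, had clones at least that far apart. The log2 fold change of -0.04 (SE 0.69, adjusted p = 0.97 by edgeR) is thus a mean of opposite values, being 0.75 without Pim3-/- replicate 2 and -2.06 without Pim3-/- replicate 1. Both of these were called, each with the lone clone assumed to vary as the WT libraries do. In counts, Hk1, the widely expressed hexokinase, stood at 0.69 and 0.73 of Hk2 in WT, at 0.69 in replicate 1 and at 4.19 in replicate 2. Hk1 was higher, at 141 and 122 CPM against 79.4 and 91.8 CPM in WT (log2 fold change 0.62, SE 0.18, adjusted p = 0.0317 by edgeR).

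**Figure D2:**
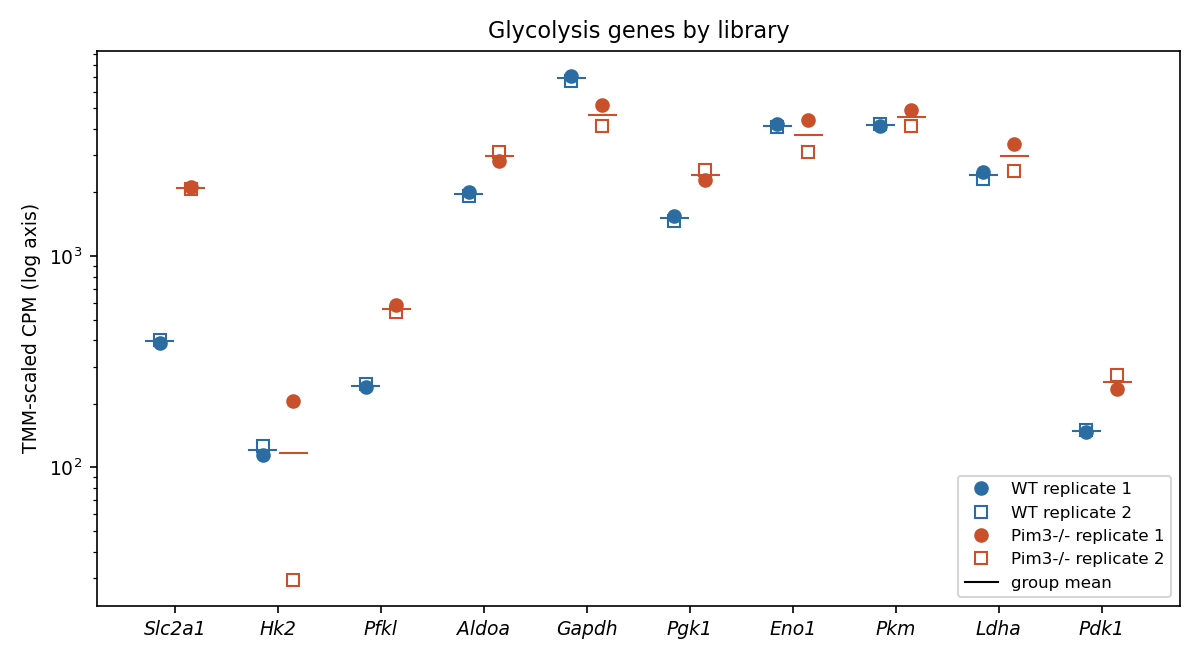
TMM-scaled CPM (log axis) of the 10 genes in each library, WT in blue and Pim3-/- in red, with filled circles for replicate 1, open squares for replicate 2 and bars for the mean of each group. Slc2a1, Pfkl, Pgk1 and Pdk1 lie higher in both clones, Hk2 lies at 205 CPM in one clone and 29.2 CPM in the other, and Gapdh lies lower in both clones without being called.

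Pfkl, the liver-type subunit of phosphofructokinase, the main control enzyme of the pathway, was at 240 and 247 CPM in WT and at 584 and 542 CPM in Pim3-/- ESCs. Again both clones were above both WT cultures. The means of 244 ± 4.90 and 563 ± 29.8 CPM (SD, n = 2) differed by a log2 fold change of 1.21 (SE 0.18, adjusted p = 0.00556 by edgeR). Without WT replicate 1 the fold change was 1.13 and the adjusted p 0.095, and without WT replicate 2 they were 1.14 and 0.077. Pfkl lies at chr10:77986947-78010083 on the minus strand. The platelet-type subunit gene Pfkp was higher too, from 387 and 391 CPM to 814 and 693 CPM (log2 fold change 0.96, SE 0.20, adjusted p = 0.0116 by edgeR). The muscle-type subunit gene Pfkm had 43.4 and 47.2 CPM in WT and 39.7 and 29.9 CPM in Pim3-/- ESCs, and was not called (adjusted p = 0.155 by edgeR). Gpi1, the isomerase between hexokinase and phosphofructokinase, rose from 547 and 534 CPM to 1330 and 1550 CPM (log2 fold change 1.41, SE 0.21, adjusted p = 0.00525 by edgeR).

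Aldoa, the aldolase that splits the 6-carbon sugar, had 2020 and 1915 CPM in WT and 2814 and 3105 CPM in Pim3-/- ESCs. Both clones were above both WT cultures, but the log2 fold change of 0.59 (SE 0.22) did not pass the test (adjusted p = 0.0736 by edgeR). It passed in 5 of the 10 alternative analyses. Fam57b on the opposite strand shares 25 exon bases with Aldoa and had counts of 20.2% to 24.3% of those of Aldoa. Aldoc, a second aldolase gene, was higher, at 89.6 and 61.0 CPM against 31.7 and 30.4 CPM in WT (log2 fold change 1.28, SE 0.21, adjusted p = 0.00682 by edgeR). Tpi1, the triose phosphate isomerase, was not called, with 973 and 873 CPM in WT and 805 and 711 CPM in Pim3-/- ESCs (adjusted p = 0.30 by edgeR).

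Gapdh, the dehydrogenase that is also widely used as a reference gene in qPCR, had the lowest fold change of the 10. Its levels were 7110 and 6737 CPM in WT and 5205 and 4137 CPM in Pim3-/- ESCs. Both clones were below both WT cultures. The log2 fold change of -0.57 (SE 0.25) did not pass (adjusted p = 0.12 by edgeR), while the Wald test of DESeq2 called it lower (-0.61, adjusted p = 0.0209). With library totals alone it was -0.11. Genes of at least 100 CPM had a median of -0.58, so Gapdh was close to the middle of its class. The annotation holds 180 rows with near copies of the Gapdh transcript, 169 of them pseudogenes, and their summed counts were 2.43% to 3.09% of those of Gapdh, so the Gapdh count is uncertain to the extent that reads were divided among them.

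A ratio to Gapdh within a library needs no scaling between libraries. The ratio of Slc2a1 to Gapdh counts was 0.0546 and 0.0597 in WT against 0.406 and 0.504 in the clones, a 7.92-fold difference. The ratio was 3.44-fold higher for Pfkl, 2.55-fold for Pdk1, 2.39-fold for Pgk1, 2.24-fold for Aldoa, 1.82-fold for Ldha, 1.62-fold for Pkm and 1.33-fold for Eno1. For Hk2 it was 0.96-fold, again with the clones on either side of WT. These folds hold the difference of Gapdh as well, and show only unequal change between the genes of each pair.

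Pgk1, which makes the first ATP of the pathway, had 1552 and 1470 CPM in WT and 2300 and 2558 CPM in Pim3-/- ESCs. Both clones were above both WT cultures, with means of 1511 ± 58.5 and 2429 ± 182 CPM (SD, n = 2). The log2 fold change was 0.68 (SE 0.22, adjusted p = 0.044 by edgeR), close to the threshold. The call was lost with the size factors of DESeq2 (adjusted p = 0.0665) and with a replicate block (0.134), and without WT replicate 1 (0.327) or WT replicate 2 (0.381). Pgk1 lies at chrX:106187100-106203699 on the plus strand. The processed copy Pgk1-rs7, identical to it over 1255 bases, had 197, 206, 430 and 444 counts, and the near copies of Pgk1 together had 0.625% to 0.72% of its counts.

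None of the enzyme genes Eno1, Pkm and Ldha, which act after Pgk1, passed the test in either direction. Pgam1, the mutase, was not called, at 739 and 798 CPM in WT and 1240 and 909 CPM in Pim3-/- ESCs (adjusted p = 0.134 by edgeR). Eno1, the main enolase, had 4215 and 4067 CPM in WT and 4406 and 3100 CPM in the clones, which fell on both sides of WT (log2 fold change -0.14, SE 0.26, adjusted p = 0.699 by edgeR). The near copy Eno1b had 786 to 941 CPM in WT and 602 to 852 CPM in Pim3-/- ESCs, and the near copies of Eno1 together had 19.9% to 22.9% of its counts, so the level of Eno1 is uncertain. Of the tissue-specific enolases, Eno2 was not called (10.9 and 10.2 CPM, then 13.6 and 23.9 CPM), and Eno3 was lower, from 24.1 and 21.6 CPM to 12.4 and 11.6 CPM (log2 fold change -0.93, SE 0.19, adjusted p = 0.0119 by edgeR). Bpgm, which diverts an intermediate to 2,3-bisphosphoglycerate, was not called (28.2 and 25.6 CPM, then 22.1 and 15.4 CPM).

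Pkm, the pyruvate kinase, had 4113 and 4217 CPM in WT and 4922 and 4144 CPM in Pim3-/- ESCs. The groups overlapped, and the log2 fold change was 0.12 (SE 0.24, adjusted p = 0.715 by edgeR). Its isoforms PKM1 and PKM2 come from the same gene and are not separated by gene counts. Gm49759, a row annotated on the same strand within Pkm with 767 shared exon bases, had 23.9% to 25.1% of the Pkm count, and how reads of this overlap were assigned is not known.

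Ldha, the lactate dehydrogenase subunit that favours lactate, had 2501 and 2310 CPM in WT and 3404 and 2536 CPM in the clones. The lower clone and the higher WT culture were almost level, and the log2 fold change of 0.30 (SE 0.25) was not called (adjusted p = 0.36 by edgeR). Ldhb, the other main subunit, had 558 and 498 CPM in WT, 231 CPM in replicate 1 and 616 CPM in replicate 2. The ratio of Ldha to Ldhb counts was 4.48 and 4.64 in WT, 14.7 in replicate 1 and 4.12 in replicate 2. In this ratio replicate 1 stood apart from the other 3 libraries, and in the ratio of Hk1 to Hk2 it was replicate 2 that did.

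Pdk1, the kinase that shuts pyruvate dehydrogenase, was at 147 and 150 CPM in WT and at 236 and 274 CPM in Pim3-/- ESCs. Both clones were above both WT cultures. The means of 149 ± 2.16 and 255 ± 27.1 CPM (SD, n = 2) differed by a log2 fold change of 0.78 (SE 0.18, adjusted p = 0.0162 by edgeR). Without WT replicate 1 or WT replicate 2 the fold change was 0.71 in each case and the adjusted p 0.248 and 0.217. Pdk1 lies at chr2:71873224-71903858 on the plus strand. The kinase genes Pdk3 (30.7 and 26.9 CPM, then 37.7 and 39.8 CPM) and Pdk4 (10.8 and 11.8 CPM, then 8.88 and 11.2 CPM) were not called.

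**Figure D3:**
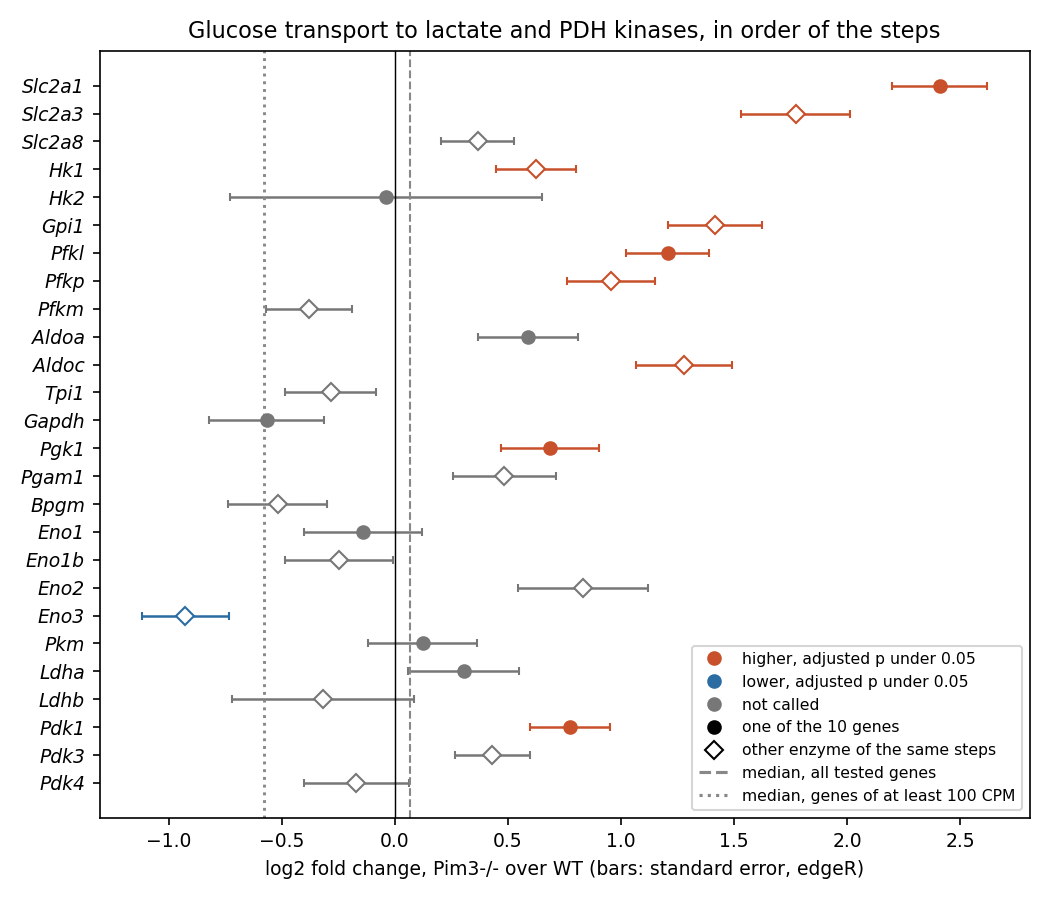
Log2 fold change of Pim3-/- over WT with its SE (horizontal axis, edgeR) for the 10 genes (circles) and for other enzymes of the same steps with a mean of at least 10 CPM (open diamonds), from glucose transport at the top to pyruvate dehydrogenase kinases at the bottom. The transporters Slc2a1 and Slc2a3, Gpi1, Pfkl, Pfkp and Aldoc lie to the right, Eno1, Pkm and Ldha lie near 0, and Eno3 is the gene called lower.

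Per kb of exon the order of the levels differed between the groups, mostly among genes whose clones overlap. In WT ESCs the level was 1675 ± 63.9 CPM per kb for Gapdh, 833 ± 14.6 for Pkm, 770 ± 19.4 for Eno1, 727 ± 40.9 for Ldha, 676 ± 25.4 for Aldoa and 673 ± 26.1 for Pgk1 (SD, n = 2). Slc2a1 followed at 113 ± 2.85, Pfkl at 36.5 ± 0.73, Hk2 at 20.2 ± 1.42 and Pdk1 at 19.1 ± 0.28 CPM per kb. The neighbours Aldoa and Pgk1 overlapped, as did Hk2 and Pdk1, and all other neighbours were apart. In Pim3-/- ESCs Gapdh was at 1130 ± 183 and Pgk1 at 1082 ± 81.3 CPM per kb, and the 7 highest genes from Gapdh down to Slc2a1, at 599 ± 5.43, overlapped from each neighbour to the next. With this length Slc2a1 was apart from the enzymes above it in WT and overlapped with Eno1, the lowest of them, in Pim3-/- ESCs, but with the length of the longest or the principal transcript it was apart from all of them in both groups. The order of the 6 highest genes depends on the gene length used, and with the length of the longest transcript 4 of the 10 genes change place in WT.

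The lists around the 10 genes, written from general knowledge with earlier results of these data known, differed in direction. Of all tested genes 17.6% were called higher and 16.2% lower, with a median log2 fold change of 0.07. Of 26 tested genes of the same steps that are no members of the 10, 7 were higher and 2 lower, with a median log2 fold change of 0.31. Of the higher genes, Hkdc1 had 6 and 3 counts in WT against 40 and 57. It passed the filter on low counts only through the Pim3-/- libraries. Fewer of them were called higher without WT replicate 1 or WT replicate 2, and more without Pim3-/- replicate 2, as among all tested genes. Among 10 tested genes of control points and lactate carriers, 3 were higher and 2 lower, with a median of 0.69. Pfkfb3, which makes the activator of phosphofructokinase fructose 2,6-bisphosphate, rose from 5.17 and 6.40 CPM to 30.6 and 46.3 CPM (log2 fold change 2.73, SE 0.26, adjusted p = 0.00274 by edgeR). Its relative Pfkfb1 was lower (-0.88), as was Emb (-1.01), a partner protein of lactate carriers. The lactate exporter gene Slc16a3 (MCT4), named after its values were seen, rose from 64.1 and 67.2 CPM to 297 and 357 CPM (log2 fold change 2.32, SE 0.19, adjusted p = 0.00215 by edgeR). Slc16a8, another lactate carrier, had 1 count in each WT library against 10 and 16 counts, a ratio of 10.4 with a 95% exact counting interval of 2.59 to 90.03. This interval covers counting error only. Slc16a8 passed the filter on low counts only through the Pim3-/- libraries, so its place among the 3 higher genes depends on the filter.

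In the branches that lead from glycolysis to the mitochondrion and to biosynthesis, more genes were called lower than higher with TMM scaling. For the entry of pyruvate, 1 of 11 tested genes was higher and 4 were lower, with a median of -0.37. Pcx, which carboxylates pyruvate, rose (0.58), and the pyruvate dehydrogenase genes Pdhx (-0.87) and Pdhb (-0.81) fell. Of 21 genes of the TCA cycle none was higher and 11 were lower, with a median of -0.54 and with Mdh1 (-1.33) and Sdhb (-1.28) lowest. Of 7 genes of the pentose phosphate pathway none was higher and 4 were lower, with a median of -0.60, G6pdx (-1.39), its first enzyme, and Taldo1 (-0.85) among them. None of 5 genes of serine synthesis and none of 5 of gluconeogenesis was called by edgeR, with 3 serine genes lower and no other gene of these lists past an unadjusted p of 0.05, and the Wald test of DESeq2 called 3 serine genes lower. No gene of the TCA cycle or the pentose phosphate pathway was higher at an unadjusted p under 0.05 or by DESeq2 either. Of all genes of at least 100 CPM 47.0% were called lower, and of all tested genes 16.2%, and no difference of the lists from these shares was tested. With library totals alone the balance moved, to 2 higher and 0 lower for the entry of pyruvate and 1 higher and 2 lower for the TCA cycle. For the pentose phosphate pathway it was 0 higher and 1 lower. Of all 18444 tested genes 6606 were then called higher and 1092 lower. Without WT replicate 1 or WT replicate 2 fewer TCA cycle genes were called lower, as were fewer of all tested genes.

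**Figure D4:**
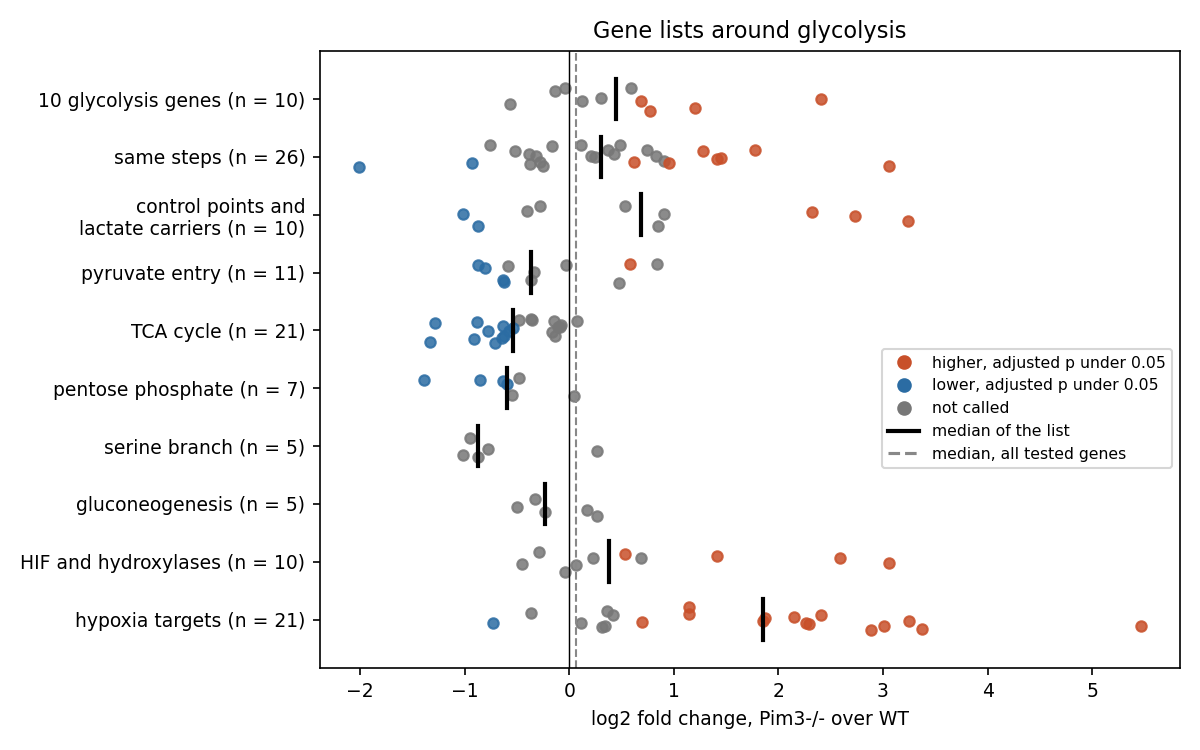
Log2 fold change of Pim3-/- over WT (horizontal axis) of each tested gene in the 10 glycolysis genes and in 9 lists around them, 1 point per gene, red where called higher and blue where called lower at an adjusted p under 0.05, with a black bar at the median of each list and a dashed line at the median of all tested genes (0.07). Hypoxia targets lie highest, with a median of 1.85, and the medians of the TCA cycle, pentose phosphate and serine lists lie below 0, with 1 gene of each list above 0.

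A list of 21 further textbook targets of hypoxia-inducible factors, which holds none of the 10 genes, had 14 higher genes and 1 lower. Of all tested genes 17.6% were called higher and 16.2% lower. The median log2 fold change of the list was 1.85, against 0.07 for all tested genes. Adm, which encodes the peptide adrenomedullin, rose from 7 and 4 counts to 213 and 410 counts (5.46, SE 0.53). It passed the filter on low counts only through the Pim3-/- libraries. P4ha2, a collagen prolyl hydroxylase, rose from 10.3 and 11.5 CPM to 126 and 101 CPM (3.38, SE 0.20). Vegfa, the vascular growth factor, rose from 27.7 and 29.8 CPM to 115 and 167 CPM (log2 fold change 2.29, SE 0.22, adjusted p = 0.0028 by edgeR). Mif was the 1 gene called lower (-0.73). With library totals alone, 17 of the 21 were higher and none was lower, while of all 18444 tested genes 6606 were then called higher and 1092 lower.

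Hif1a, the gene of the oxygen-regulated subunit of HIF-1, was not among the called genes. Hif1a had 48.0 and 58.8 CPM in WT and 33.5 and 44.5 CPM in Pim3-/- ESCs, and was not called (log2 fold change -0.45, SE 0.20, adjusted p = 0.117 by edgeR). Without Pim3-/- replicate 2 it was called lower (-0.69, adjusted p = 2.8e-05 by edgeR), and with library totals alone it was near 0. HIF-1 is controlled mainly at its protein, which was not measured here. Of 10 genes of HIF subunits and their regulators, 4 were higher and none was lower, beside 17.6% and 16.2% of all tested genes. The same numbers of the 10 held at an unadjusted p under 0.05, while DESeq2 called 3 higher and none lower. Egln1, a prolyl hydroxylase that marks HIF subunits for destruction, rose from 10.2 and 11.0 CPM to 89.6 and 86.7 CPM (log2 fold change 3.06, SE 0.17, adjusted p = 8.1e-04 by edgeR), and Egln3 from 12.4 and 11.5 CPM to 66.6 and 77.9 CPM (2.59, SE 0.18).

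Cell type markers were examined in the same libraries. The ESC markers were strongly expressed in all libraries, with summed levels of 10883 and 9810 CPM in WT and 7114 and 6731 CPM in Pim3-/- ESCs, and of 10 markers 1 was higher, Klf4 (1.44), and 4 were lower, Pou5f1 (-1.12) and Dppa5a (-0.97) the most, beside 47.0% called lower among genes of at least 100 CPM. With library totals alone the balance was the opposite, with 4 ESC markers higher and 1 lower. Of all 18444 tested genes 6606 were then called higher and 1092 lower. Of 7 primitive endoderm markers, 6 were tested and all 6 were higher, with log2 fold changes from 1.55 to 5.27. Their summed levels were 2.98 and 5.12 CPM in WT and 33.8 and 18.7 CPM in Pim3-/- ESCs. Among all tested genes 17.6% were called higher and 16.2% lower. The median log2 fold change of all tested genes was larger at such low levels than at high ones, and no difference of the markers from it was tested. Foxa2, 1 of the 7, was at 0 counts in WT and at 5 and 7 in Pim3-/- ESCs. Sox7 had 3 and 0 counts in WT against 91 and 67 in Pim3-/- ESCs (a ratio of 42.0 over the pooled counts, 95% exact counting interval 14.1 to 206). Sox17 had 1 and 5 against 85 and 10. Sox7 and Sox17 passed the filter on low counts only through the Pim3-/- libraries. That all tested markers were higher is therefore in part fixed by the filter. Of 8 trophoblast markers 2 of 6 tested were higher, Gata3 (2.28) and Eomes (2.24), and summed levels were 137 to 138 CPM in WT and 109 to 138 CPM in Pim3-/- ESCs. Of 5 tested neural markers Tubb3 (-0.78) was lower, with summed levels of 133 to 142 CPM in WT and 75.2 to 99.1 CPM in Pim3-/- ESCs. The fibroblast markers summed to 20.4 to 25.4 CPM, mostly from Thy1, and Col3a1, Dcn and Lum had 0 or 1 counts in every library. The part of these cells in the values of the glycolysis genes was not tested. In bulk RNA, fewer cells of a type and less RNA per cell cannot be told apart.

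The 10 genes held up unequally under other ways of processing. Leaving out a WT library lowered the number of calls among all tested genes as well, and leaving out a Pim3-/- library raised it. Such losses and gains are therefore not particular to these genes. Slc2a1 was called higher in all 10 alternative analyses, with log2 fold changes from 2.33 to 2.86 and adjusted p-values up to 0.0177 (edgeR or DESeq2). Pfkl and Pdk1 were each called in 8, losing the call when either one of the WT libraries was left out, and Pgk1 in 6. Eno1 and Pkm were called in none. Of the called genes of the same steps, Gpi1, Pfkp, Hk1 and Aldoc lost the call when either one of the WT libraries was left out (adjusted p from 0.0617 to 0.419 by edgeR), and Slc2a3 without WT replicate 1 (0.051). In both cases no gene of the same steps was called lower, so Eno3 lost its call too, and Hk1 also lost it with no filter (adjusted p = 0.0516 by edgeR). With either one of the WT libraries left out only Slc2a1 of the 10 was called, without Pim3-/- replicate 1 there were 5 higher and 2 lower, Hk2 and Gapdh, and without Pim3-/- replicate 2 there were 7 higher.

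**Figure D5:**
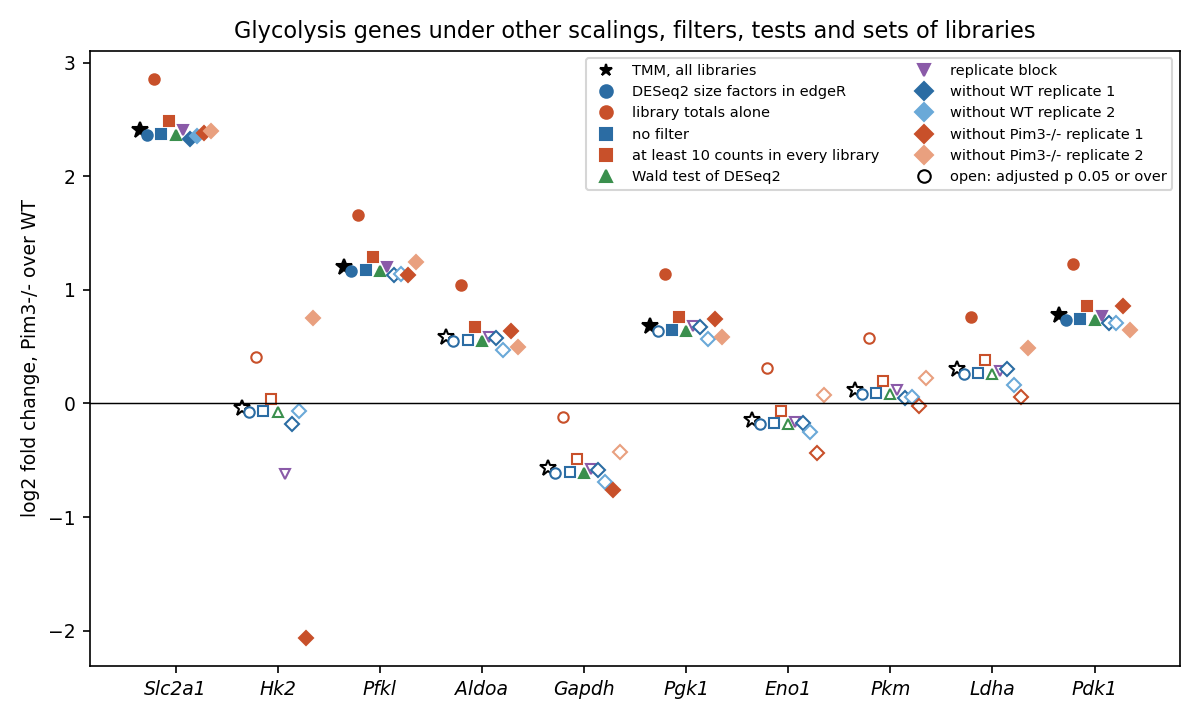
Log2 fold change of Pim3-/- over WT (vertical axis) of the 10 genes with TMM scaling of all libraries (stars) and in 10 alternative analyses, filled where the adjusted p is under 0.05 and open otherwise. Library totals alone (red circles) move each gene up by about 0.45, Slc2a1 stays between 2.33 and 2.86, and Hk2 moves between -2.06 and 0.75 as either clone is left out.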

How the data were processed

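RNA-seq of 2 WT samples and 2 Pim3-/- clones of E14 ESCs was analysed. The authors deposited raw counts per gene, used here as deposited. The study's methods name Cutadapt, Hisat2, mm10 and Ensembl genes, whereas the submitters' processing notes name Trim Galore, STAR, featureCounts and GRCm38. Which of these made the counts, the strand setting and the handling of multi-mapping reads are not given in the sources used here. The table of transposable elements was not used.

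Low counts were filtered with filterByExpr (minimum count 10, minimum total 15), counts were scaled by TMM factors, and groups were compared with the quasi-likelihood test of edgeR 4.0.16 in R 4.3.3, with Benjamini-Hochberg adjustment over all tested genes and calls at an adjusted p under 0.05. Scripts were tested on simulated data. With 2 libraries a group, the smallest p of an exact permutation test is 0.333, and none was run. The lowest count of the 10 genes was 753, for a counting error of 3.64%. Genes were located in the GENCODE annotation of GRCm38, near copies were found with BLAST+ 2.17.0 (at least 90% identity over 200 bases), promoter windows were taken from RefSeq, and figures were drawn with matplotlib 3.10.9. The symbol Aldoa stands for 2 annotated genes, of which the one with more exon bases was used.

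The genes and lists were chosen with earlier results of these data known. Named are the 10 genes, genes of the same steps with a mean of at least 10 CPM, the 2 called genes of each other list with the largest fold change in each direction, Hif1a, Vegfa and the 5 genes nearest in profile. Overlapping genes and genes named as such were chosen after their values were seen. Alternatives were size factors of DESeq2 1.42.0, library totals, the Wald test of DESeq2, no filter, a minimum of 10 counts in each library, a replicate block, leaving out each library and other gene lengths.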

Additional observations from a re-analysis of the deposited data

How the results depend on the processing

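Of the 10 genes, 4 were called higher and none lower, with 5 and 0 at an unadjusted p under 0.05. By the Wald test of DESeq2 it was 5 higher and 1 lower, Gapdh. With 1 library left out, the lone library of its group being assumed to vary like the other group, 1 to 7 were higher and 0 to 2 lower. Their median log2 fold change became 0.90 with library totals alone, 0.53 with at least 10 counts in every library and 0.32 to 0.54 with 1 library left out. Signs changed for Eno1 (0.31 with library totals, -0.44 to 0.073 with 1 library left out), Hk2 (0.41 with library totals, 0.039 with at least 10 counts in every library, -2.06 to 0.75 with 1 library left out) and Pkm (-0.025 to 0.22 with 1 library left out). With 1 library left out the numbers called moved among all tested genes as well. The causes were not tested.

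Of 85 tested pathway genes outside the 10, 11 were higher and 23 lower, with library totals 23 and 5, and with 1 library left out 3 to 20 and 2 to 42. Among all tested genes 17.6% were called higher and 16.2% lower. Library totals turned the share of higher calls among all called genes from 52.1% to 85.8%. With the replicate number as a replicate block, 3 of the 10 were higher, Pgk1 being lost (log2 fold change 0.68, adjusted p = 0.134 by edgeR). Deviations of same-numbered libraries correlated at 0.03 over 18444 genes, so the numbers were not taken to pair the libraries. With the length of the longest or, chosen after seeing the data, of the principal transcript, 4 of the 10 changed place in the order of levels in WT.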

Other observations

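Of 12 genes in wide use as qPCR references, a list without Gapdh, 6 were lower in the libraries labelled Pim3-/- and none was higher, with a median log2 fold change of -0.72, beside 47.0% called lower and 4.22% called higher among all genes of at least 100 CPM. Ppia had 6979 and 6028 CPM in WT and 2660 and 1652 CPM in Pim3-/- ESCs (log2 fold change -1.59, SE 0.30, adjusted p = 0.00932 by edgeR), and Rplp0, a ribosomal protein gene, 3327 and 2991 CPM against 1504 and 1613 CPM (-1.02, SE 0.22, adjusted p = 0.0137 by edgeR). With library totals alone Ppia was at -1.14. No gene of the list was higher at an unadjusted p under 0.05 or by DESeq2, and with library totals 2 were higher and 2 lower. Of all 18444 tested genes 6606 were called higher and 1092 lower with library totals.

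The 5 genes whose levels over the 4 libraries lay nearest to the mean profile of the 10 glycolysis genes, among 9650 tested genes of at least 10 CPM, were Phc2, Sult4a1, Gca, Slc7a6 and Tmem81, at distances of 0.0123 to 0.0488 in log2 CPM centred on each gene's mean. Phc2 had 23.4 and 23.3 CPM in WT and 37.4 and 28.1 CPM in Pim3-/- ESCs. None of the 5 was called by edgeR. They were picked by their levels in these same libraries, so their p-values are no test of their own. The 10 glycolysis genes themselves lay at distances of 0.195 (Ldha) to 2.02 (Hk2) from that mean profile. Rows that the table names as related sequences of the 10 genes numbered 11, with 0 to 444 counts.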
